A study of Mus musculus with 8 samples.

Results

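The genes described here are YAP, TEAD and their targets, a set of 10 listed genes of the Hippo pathway found by symbol among 52636 Ensembl gene identifiers. They comprise the co-activators Yap1 and Wwtr1 (whose protein is TAZ), the DNA-binding factors Tead1, Tead2 and Tead4, the targets Ccn1 (formerly Cyr61), Ccn2 (formerly Ctgf) and Amotl2, and the kinases Lats1 and Lats2. All 10 passed the filter on low counts, which kept 15517 genes. RNA-seq compared 2 libraries of Klf4 knockout (KO) E14 mouse embryonic stem cells, called B and F, with 2 libraries of unmodified (WT) E14 cells, replicates 1 and 2. HiChIP for RNA polymerase II, which joins and sequences chromatin ends lying close together, gave 1 pooled file of paired-end tags (PETs) per genotype. E14 is an embryonic stem cell line from the mouse blastocyst. According to the labels, every sample carried the same medium descriptions. One holds 15% serum, 10 ng/mL LIF, the MEK inhibitor PD0325901 at 1 µM and the GSK inhibitor CHIR99021 at 3 µM. The other holds 15% serum and 1000 U/mL LIF, so which medium the cells were in at harvest is not certain. The sources used here do not say whether the KO libraries came from 1 edited clone or whether any library came from a separate culture. The p-values therefore measure the spread between these libraries, which may be technical.

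In the Hippo pathway, LATS kinases phosphorylate YAP and TAZ, which are then held in the cytoplasm or degraded. Unphosphorylated YAP and TAZ enter the nucleus, bind TEAD proteins and activate genes such as Ccn1, Ccn2 and Amotl2. In the early mouse embryo, YAP and TEAD4 are known for driving the trophectoderm programme in outer cells. AMOTL2 and LATS2 restrain YAP, and their genes are themselves known YAP targets, so the pathway holds feedback loops.

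Gene counts ranged from 8287497 to 9762190 per library. Klf4 had 0 counts in both KO libraries, against 2882 and 2421 counts in the WT libraries. All 10 pluripotent stem cell markers examined were above the filter, with Pou5f1 at 1652 ± 151 CPM in KO and 1604 ± 577 CPM in WT (SD, n = 2; CPM is counts scaled to a library size of 1000000). In that list Dppa4, Lin28a and Utf1 rose, and its summed level was 5944 to 6062 CPM in KO libraries and 4701 to 5440 CPM in WT libraries. Of 10 fibroblast and feeder markers 3 passed the filter and 0 were called by edgeR, DESeq2 or limma voom (2 at an unadjusted edgeR p under 0.05), and the whole list summed to between 17.9 and 23.6 CPM in KO libraries and between 25.4 and 25.8 CPM in WT libraries. Postn and Lum had 0 counts in every library. Mesoderm markers passed in 4 of 10 cases and summed to between 9.48 and 12.6 CPM in KO and between 10.9 and 15.3 CPM in WT, with Msgn1 and Foxf1 at 0. Hand1 rose and Gsc fell in edgeR, limma voom called neither, DESeq2 did not call Hand1, and Gsc missed the threshold without WT replicate 2 (edgeR FDR 0.081). Trophectoderm markers summed to between 92.1 and 163 CPM in KO and between 112.7 and 128.5 CPM in WT over 12 genes, of which 8 passed. Primitive endoderm markers summed to between 195 and 322 CPM in KO and between 205 and 299 CPM in WT over 12 genes, of which 8 passed. Among those 8, Lrp2, Col4a1, Gata6 and Cubn rose and Lama1 fell (edgeR FDR between 0.010 and 0.033). For comparison with the calls in these marker lists, edgeR called 8.3% of all tested genes, 2.96% higher and 5.34% lower in KO. The unadjusted edgeR p was under 0.05 for 3780 of all 15517 tested genes. Among these marker calls, Dppa4 was lost without either KO library, Col4a1 without KO library F, and Gata6 without KO library B, KO library F or WT replicate 2 (edgeR FDR between 0.068 and 0.14). The part of these other cell types in the results below was not tested, and in bulk RNA fewer cells of a type and less RNA per cell cannot be told apart.

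TEAD proteins recognise the letters GGAATG, so the promoter windows of the genes were read for this motif on both strands. The supplied RefSeq table (GRCm38.p6) holds windows from 250 bases before to 50 bases after the gene start for Yap1, Wwtr1, Tead2, Ccn1, Amotl2, Lats1 and Lats2. The motif was present for 5 of these 7 genes (Yap1, Wwtr1, Ccn1, Amotl2 and Lats2), against 14.4% of 10763 tested genes and 16.6% of all 27025 genes in the table. The windows below belong to the 2 co-activator genes and to the 2 targets that fell. They are printed 5′ to 3′ on the strand of the gene, with the motif (GGAATG or its reverse complement CATTCC) in capitals.
Ccn1, chr3:145649936-145650235, minus strand: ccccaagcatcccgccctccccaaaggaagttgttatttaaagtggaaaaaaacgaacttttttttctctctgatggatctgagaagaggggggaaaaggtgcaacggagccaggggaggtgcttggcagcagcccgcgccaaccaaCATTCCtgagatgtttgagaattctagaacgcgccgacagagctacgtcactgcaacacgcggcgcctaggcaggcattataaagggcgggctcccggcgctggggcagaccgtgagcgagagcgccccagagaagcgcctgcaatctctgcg
Amotl2, chr9:102717554-102717853, plus strand: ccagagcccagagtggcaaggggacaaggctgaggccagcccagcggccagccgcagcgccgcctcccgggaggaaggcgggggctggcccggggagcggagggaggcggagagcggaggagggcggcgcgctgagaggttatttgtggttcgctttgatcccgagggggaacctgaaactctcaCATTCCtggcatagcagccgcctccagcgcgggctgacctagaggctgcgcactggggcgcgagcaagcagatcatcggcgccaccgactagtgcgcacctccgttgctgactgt
Wwtr1, chr3:57575861-57576160, minus strand: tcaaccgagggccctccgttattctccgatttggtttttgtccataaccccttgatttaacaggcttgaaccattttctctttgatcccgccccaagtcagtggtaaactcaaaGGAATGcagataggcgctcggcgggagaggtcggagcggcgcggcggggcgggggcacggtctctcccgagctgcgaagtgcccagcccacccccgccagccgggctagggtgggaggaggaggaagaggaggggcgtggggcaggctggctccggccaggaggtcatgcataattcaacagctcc
Yap1, chr9:8004547-8004846, minus strand: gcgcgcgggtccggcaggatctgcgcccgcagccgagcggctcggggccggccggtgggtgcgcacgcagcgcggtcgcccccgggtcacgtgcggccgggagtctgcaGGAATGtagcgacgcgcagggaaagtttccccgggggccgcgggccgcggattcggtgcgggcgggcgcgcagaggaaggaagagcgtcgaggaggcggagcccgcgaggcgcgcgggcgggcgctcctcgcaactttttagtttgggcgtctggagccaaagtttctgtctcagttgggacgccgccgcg
Counted from the gene start, the first base of the motif lay at -103 in Ccn1 and -65 in Amotl2, where it is on the strand opposite to the gene. It lay at -136 in Wwtr1, -141 in Yap1 and 5 in Lats2, on the strand of the gene. A KLF motif, GGGTGNGG on either strand, was found in none of the 7 genes' windows, against 23.6% of the tested genes. A match of letters is no evidence of binding, and a window without a match says nothing about the factor.

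**Figure D1:**
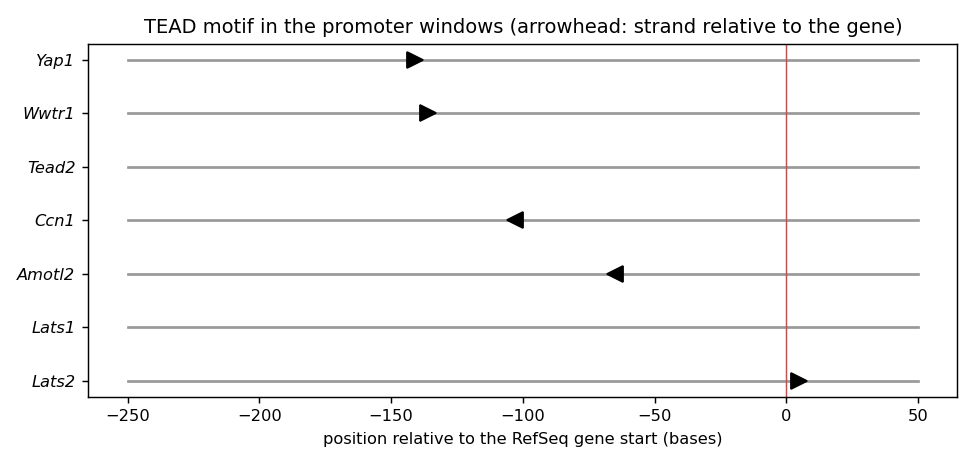
Positions of the TEAD motif (arrowheads, pointing right on the strand of the gene and left on the opposite strand) in the first promoter window of each gene, on an axis in bases relative to the RefSeq gene start (red line). In all, 5 windows hold 1 motif each, between -141 and 5, and the windows of Tead2 and Lats1 hold none.

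Across the 10 genes, edgeR called 2 lower and 0 higher in KO at a false discovery rate (FDR) of 0.05. Of all tested genes, 8.3% were called, 5.34% lower and 2.96% higher. The median log2 fold change (KO over WT) of the 10 was -0.46, and that of all tested genes was 0.00. Both KO libraries lay below both WT libraries for 5 of the 10 genes and above them for 1, compared with 27.5% and 26.0% of all tested genes. The genes that fell were the targets Ccn1 and Amotl2.

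**Figure D2:**
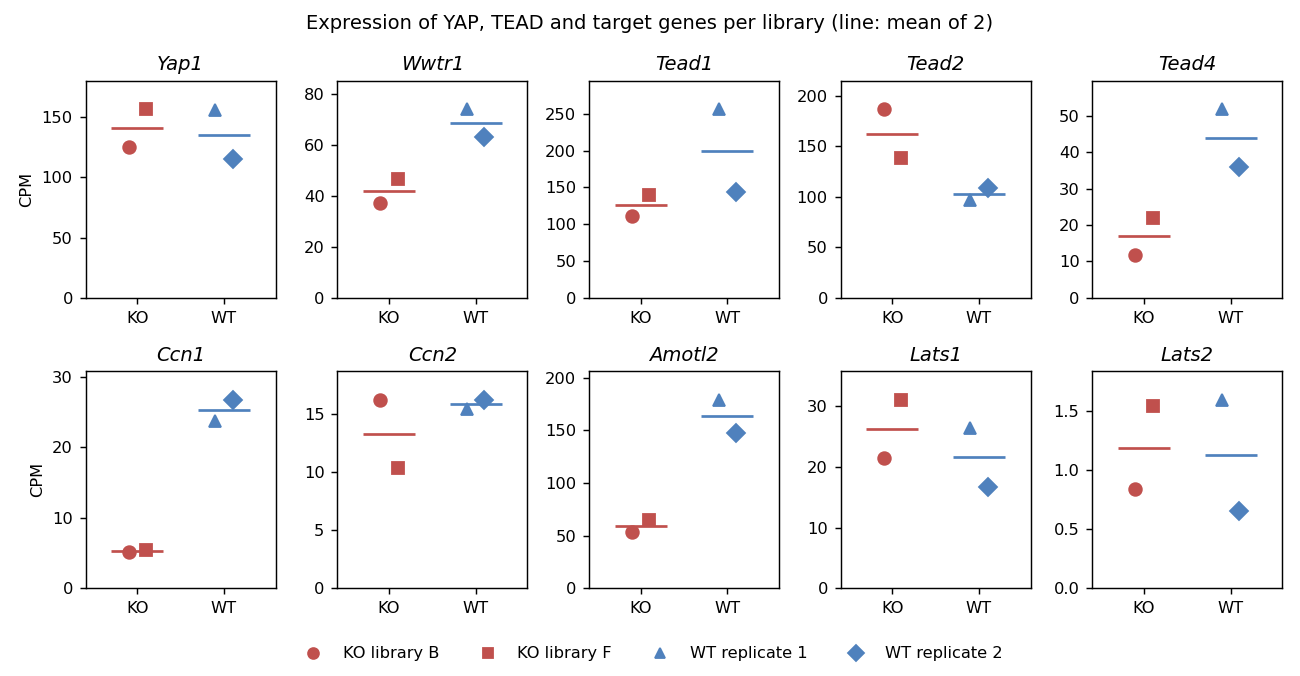
Expression of each gene in CPM (vertical axes, each starting at 0) in the 2 KO libraries (red, left) and the 2 WT libraries (blue, right), with a line at the mean of each genotype. By fold, the genotypes are farthest apart for Ccn1, with KO at 5.15 and 5.45 CPM and WT at 23.8 and 26.8 CPM.

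Ccn1 (chr3:145646971-145649985, mm10) encodes a secreted matricellular protein that binds integrins. It had 43 counts in KO library B and 46 in KO library F, or 5.15 and 5.45 CPM, against 224 and 246 counts in WT replicates 1 and 2, or 23.8 and 26.8 CPM. The KO libraries were close to each other and far below both WT libraries. Ccn1 fell 4.76-fold in KO (95% interval 2.84 to 7.99, edgeR FDR 0.0077). It was past the threshold without any 1 of the 4 libraries (edgeR FDR between 1.7e-04 and 0.0045). With no filter on low counts its edgeR FDR was 0.0775. In that setting 2 of 27254 genes passed.

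Amotl2 (chr9:102717091-102733418) encodes an angiomotin family scaffold that binds YAP and restrains it. The gene stood at 53.1 and 64.8 CPM in KO libraries B and F and at 179 and 148 CPM in WT replicates 1 and 2. All KO values were below all WT values. Amotl2 fell 2.77-fold (95% interval 1.86 to 4.12, edgeR FDR 0.013). When KO library B was left out the gene missed the threshold (log2 fold change -1.34, edgeR FDR 0.10), as it did with no expression filter (edgeR FDR 0.098).

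Ccn2 (chr10:24595442-24598683), the gene of connective tissue growth factor and a paralog of Ccn1, had 16.17 and 10.3 CPM in KO libraries B and F and 15.4 and 16.21 CPM in WT replicates 1 and 2. The genotypes overlapped, since KO library B lay between the WT libraries. Its log2 fold change was -0.26 (95% interval -1.05 to 0.54, edgeR FDR 0.70), an interval that also covers a 2-fold fall. The annotated span of Ccn2 overlaps that of the non-coding gene Gm15270, and no source used here gives the strand setting of the counting. Records that HTSeq found ambiguous were listed in a summary row, between 0.96% and 1.43% of a library. Reads of the shared stretch may therefore be missing from the count of Ccn2, and how many is not known.

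Among the TEAD genes, none passed the edgeR threshold, and their fold changes had different signs. Tead4 (chr6:128227143-128300813) encodes the TEAD known for its need in trophectoderm. It had 11.9 and 22.03 CPM in KO libraries B and F, against 51.7 and 35.9 CPM in WT replicates 1 and 2. Both KO values were below both WT values, while the libraries within each genotype differed widely. The log2 fold change was -1.37 (95% interval -2.21 to -0.53, edgeR FDR 0.058). DESeq2 called it lower (adjusted p 0.011), and edgeR did so without KO library F (FDR 0.013), WT replicate 1 (FDR 0.0499) or WT replicate 2 (FDR 8.4e-04), but not without KO library B (FDR 0.29).

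Tead1 (chr7:112679356-112906784) had 110.9 and 140.2 CPM in KO libraries B and F and 256 and 144 CPM in WT replicates 1 and 2. WT replicate 1 stood apart, while WT replicate 2 was close to KO library F. The log2 fold change of Tead1 was -0.67 (95% interval -1.39 to 0.05, edgeR FDR 0.24). Leaving out WT replicate 2 brought a call (log2 fold change -1.06, edgeR FDR 0.010), and leaving out WT replicate 1 took the value to -0.20 (edgeR FDR 0.70).

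Tead2 (chr7:45215792-45233468), known for its expression in the early mouse embryo, was the only one of the 10 genes with both KO libraries above both WT libraries. It had 186 and 139 CPM in KO libraries B and F and 96.9 and 108.9 CPM in WT replicates 1 and 2. The log2 fold change was 0.66 (95% interval 0.08 to 1.24, edgeR FDR 0.15). No alternative brought Tead2 past the threshold (adjusted p between 0.14 and 0.71). For Tead3, which is outside the set, the log2 fold change was -0.48 (edgeR FDR 0.50).

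The co-activator Yap1 (chr9:7931999-8004638) had 124.7 and 156 CPM in KO libraries B and F and 155 and 115 CPM in WT replicates 1 and 2. The genotypes overlapped. The log2 fold change of Yap1 was 0.05 (95% interval -0.54 to 0.65, edgeR FDR 0.92), and it changed sign when 1 library was left out (-0.18 to 0.28). Wwtr1 (chr3:57455644-57575910) stood at 37.3 and 46.7 CPM in KO and at 74.1 and 63.3 CPM in WT. Both KO values of Wwtr1 lay below both WT values. Its log2 fold change was -0.71 (95% interval -1.31 to -0.12, edgeR FDR 0.14), and it did not pass without any 1 library (edgeR FDR between 0.083 and 0.63). RNA levels do not show how much YAP or TAZ protein was present, phosphorylated or in the nucleus.

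The kinase genes Lats1 and Lats2 did not pass either. Lats1 (chr10:7681200-7716461) had 21.4 and 31.0 CPM in KO libraries B and F and 26.4 and 16.8 CPM in WT replicates 1 and 2, so the genotypes overlapped (log2 fold change 0.28, 95% interval -0.50 to 1.07, edgeR FDR 0.66). Its annotated span overlaps that of Pcmt1, that of Wwtr1 overlaps the pseudogene Gm16016, and that of Lats2 overlaps Gm26440 and Gm52140. Lats2 (chr14:57689662-57746212) was near the limit of detection, with 7 and 13 counts in KO and 15 and 6 counts in WT. The interval of its log2 fold change ran from -1.49 to 1.64 (edgeR FDR 0.96), which covers a 2-fold difference in both directions, so none of that size was detectable at this depth. The 466 other tested genes on chromosome 14 had a median log2 fold change of -0.63, the lowest of any autosome. The 18 tested genes within 1 Mb of Lats2 had one of -0.40. On chromosome Y the 5 tested genes had a median of -10.06. Such differences cannot be told apart from the loss of Klf4 here, and their part in the results was not tested. Around Ccn1 and Amotl2 the medians were -0.06 over 15 genes and -0.22 over 11, with 1 other gene lower near each and 1 higher near Ccn1.

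**Figure D3:**
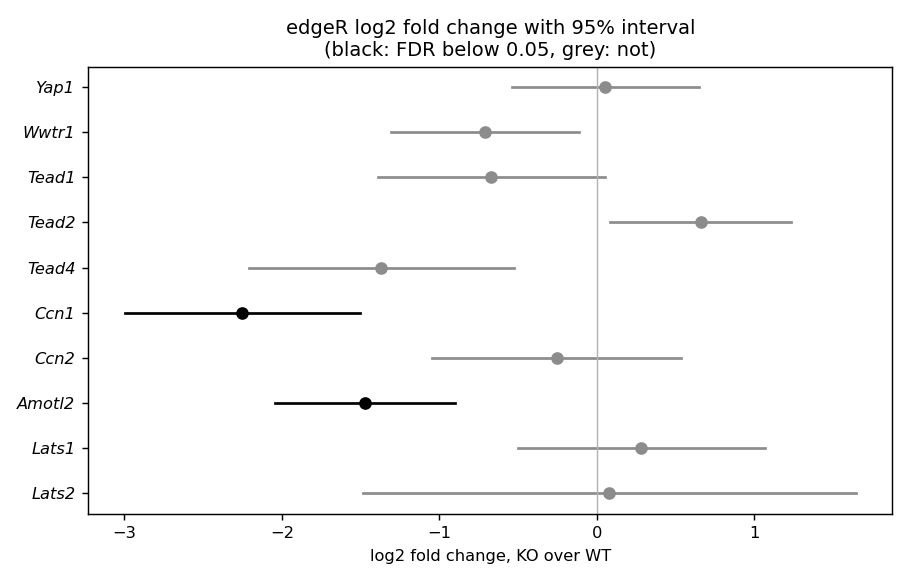
Log2 fold change of each gene (KO over WT, points) with its 95% interval (lines) from the edgeR fit over all genes. Ccn1 and Amotl2 (black) passed an FDR of 0.05; the interval of Lats2, from -1.49 to 1.64, is the widest.

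The rest of the pathway was read from lists of kinases and upstream regulators, of TEAD cofactors and of a YAP and TAZ target signature known from human tumours, each without the 10 genes above. Of 45 listed genes 37 were tested and 3 called, 1 higher and 2 lower. This is 8.11%, close to the 8.3% of all tested genes. All calls were in the target signature, where 14 of 18 genes were tested and the median log2 fold change was -0.38.

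Myof, which encodes a membrane repair protein of the ferlin family, fell 3.21-fold, with 35.0 and 88.8 CPM in KO libraries B and F and 233 and 165 CPM in WT replicates 1 and 2 (edgeR FDR 0.047). Myof missed the threshold when KO library B was left out (log2 fold change -1.17 against -1.68 with all libraries, edgeR FDR 0.18) and with library totals as the only scaling (edgeR FDR 0.070). Without KO library F its log2 fold change was -2.50. Tgfb2, a growth factor gene, had 3 counts in each KO library and 23 and 25 in the WT libraries (6.99-fold lower, edgeR FDR 0.032). Its call was lost with DESeq2 (adjusted p 0.075), without either KO library (edgeR FDR 0.12 and 0.14) and without WT replicate 2 (edgeR FDR 0.072). Gadd45a, a stress response gene that p53 also activates, rose 2.71-fold, with 104.2 and 112.3 CPM in KO and 31.8 and 48.0 CPM in WT (edgeR FDR 0.020). Axl, Crim1, F3, Dock5, Ptpn14, Arhgef17 and Asap1 had log2 fold changes between -0.80 and -0.07, and Igfbp3, Nuak2, Fjx1 and Nt5e had ones between 0.69 and 1.41, none past the threshold. Dock5 lies on chromosome 14, and its value of -0.63 was also the median of the 467 tested genes there. Ankrd1, often used as a YAP target in other cells, had 0 counts in both KO libraries and 1 and 2 in the WT libraries.

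Of 20 tested kinases and upstream regulators, 0 passed whether the tool was edgeR, DESeq2 or limma voom. The unadjusted edgeR p was under 0.05 for 5 of them, compared with 3780 of all 15517 tested genes. The median log2 fold change of these 20 was -0.13. The values ranged from -1.03 for Amotl1, a paralog of Amotl2 (edgeR FDR 0.11), to 0.83 for Stk4, a kinase that activates LATS (edgeR FDR 0.14). Among TEAD cofactors, Vgll4, a repressor that competes with YAP for TEAD, had 5.27 and 8.29 CPM in KO and 18.9 and 15.9 CPM in WT (log2 fold change -1.36, edgeR FDR 0.061). DESeq2 called it lower. None of the 3 tested genes of that list passed in edgeR or limma voom, and 1 had an unadjusted edgeR p under 0.05.

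**Figure D4:**
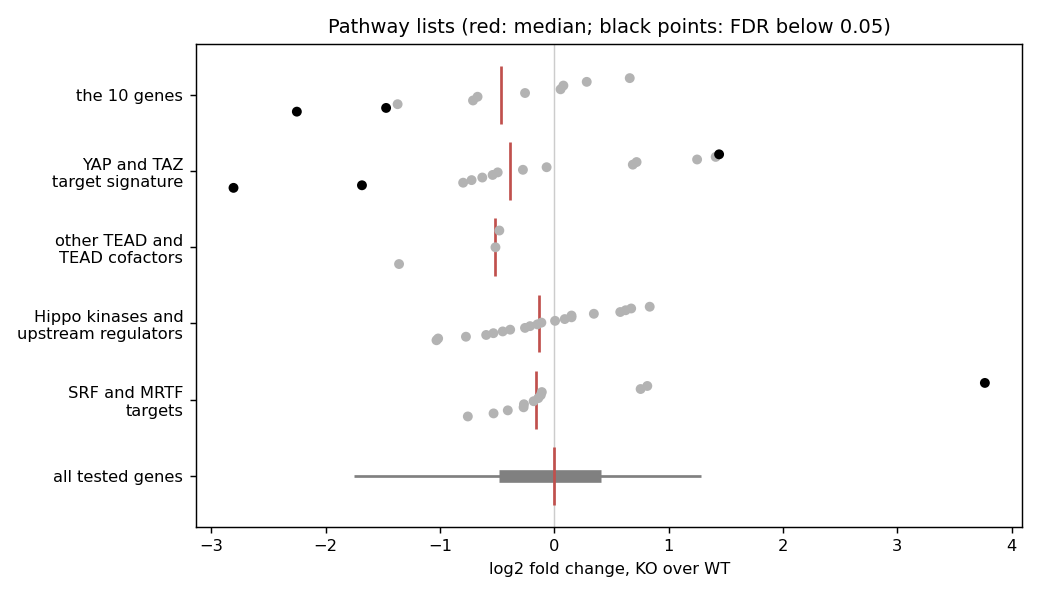
Log2 fold change (KO over WT) of the tested genes in each list, with black points for an edgeR FDR below 0.05 and red lines at the medians. For all tested genes the thick bar spans the middle quartiles (-0.48 to 0.41) and the thin line the 5th to 95th percentiles (-1.75 to 1.28); the medians of the lists lie between -0.51 and -0.13.

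Gm, Rik, pseudogene and unnamed entries were left out of a search for genes of similar pattern over the 4 libraries. Among the other tested genes, those nearest to Ccn1 in mean-centred log2 CPM were Tgfb2, Tdrd9 and Klhl22, at Euclidean distances of 0.09, 0.11 and 0.15. Those nearest to Amotl2 were Arg2, Mob3b and Pknox2, at 0.07, 0.08 and 0.11. The log2 CPM used a prior count of 2, which shrinks differences at low counts, such as the 3 of Tgfb2 in each KO library. With 4 libraries this is a description of shape only.

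RNA polymerase II contacts around these genes were read from 401726 PETs in the KO pool and 35189 in the WT pool. Because there is 1 pool per genotype, no test between genotypes is possible, and the intervals cover counting error only. Anchors, the sites whose contacts were counted, had been listed separately in each pool, 18293 in KO and 8373 in WT. Levels are given as PETs per 100000 of the pool. An anchor lay within 5 kb of the gene start for all 7 genes with a start in the promoter table in KO and for 5 of them in WT (not Tead2 or Lats2), compared with 38.5% and 25.8% of all 27025 genes of the table. The 7 genes all passed the filter on low counts, but only 10763 of the 27025 did. The share among tested genes alone was not computed.

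The start of Amotl2 had 26 PETs in KO and 23 in WT, despite the 11.4-fold larger KO pool. This was 6.47 per 100000 in KO (exact 95% interval 4.23 to 9.48) and 65.4 in WT (41.4 to 98.1), a 10.1-fold lower share in KO (exact conditional 95% interval 5.51 to 18.4). The anchor there was 5903 bp long in KO and 2900 bp in WT, with 1.10 and 22.5 PETs per kb of anchor per 100000. Most of the WT tags, 18 of 23, joined 2 ends inside the same anchor, compared with 8 of 26 in KO. For PETs between different anchors alone, the shares were 7.60 per 100000 in KO and 21.2 in WT, and the 2.79-fold lower value in KO had an interval (0.809 to 7.79) that includes no difference.

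Among those contacts, both pools joined Amotl2 by 3 PETs to an anchor about 90 kb away at the starts of Anapc13, of the anaphase-promoting complex, and Cep63, a centrosome gene. The distance between anchor centres was 90.6 kb in KO and 91.5 kb in WT. Another 8 PETs in KO led to an anchor 9.72 kb away inside Amotl2 itself.

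The start of Ccn1 had 2 PETs in KO and 7 in WT. Its share was 0.498 per 100000 in KO (0.0603 to 1.80) and 19.9 in WT (8.00 to 41.0), so 40.0-fold lower in KO (7.61 to 394). The 2 PETs in KO lie below the floor of 3 PETs used here, which is 0.747 per 100000 of the KO pool. With 2239 bp and 1918 bp, the anchors were of similar length in KO and WT and held 0.222 and 10.4 PETs per kb of anchor per 100000. In WT 3 PETs joined this start to other anchors, 1 to each. They led to the start of Ddah1, a gene of nitric oxide metabolism 108 kb away, to the start of Naxe 57593 kb away, and to an anchor 110893 kb away. The other PET in KO led to an anchor 289 kb away.

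Read against the background, a lower share in KO was common. Among 9678 gene starts with at least 5 PETs over both pools, 35.3% had a share more than 2-fold lower in KO and 9.41% one more than 2-fold higher, with the gene starts that had 0 PETs in WT set against 3 PETs there. Of the 7 genes, 3 were more than 2-fold lower (Ccn1, Amotl2 and Wwtr1) and 1 more than 2-fold higher (Tead2). With 3 of 7 genes lower, the set is close to all gene starts in this respect. By the ratio of shares, 2.00% of the 9678 gene starts lay below Ccn1 and 4.76% below Amotl2. The median ratio of KO to WT shares was 0.920 over the 9678 gene starts. It was 0.482 over the 6217 of them with PETs in both pools, so a lower share in KO was the usual case there. Among those 6217, 0.322% lay below Ccn1, 4.62% below Amotl2, 29.2% below Wwtr1, 55.9% below Yap1 and 69.4% below Lats1.

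**Figure D5:**
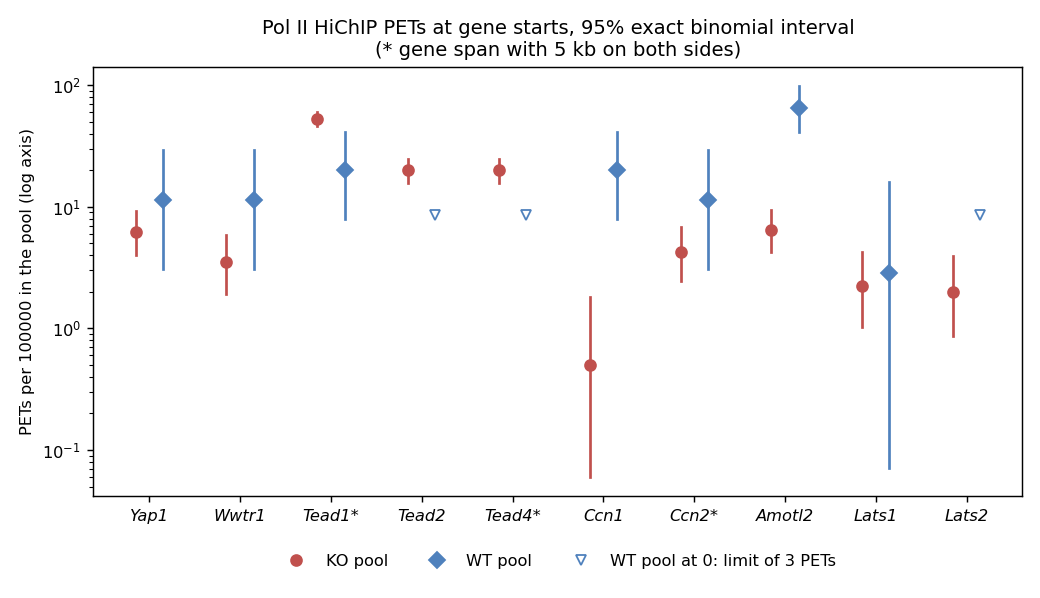
Polymerase II HiChIP PETs per 100000 of the pool (log axis) within 5 kb of each gene start, or over the gene span with 5 kb on both sides where marked *, for the KO pool (red circles) and the WT pool (blue diamonds), with exact binomial 95% intervals. KO lies below WT without overlap of the intervals for Ccn1 and Amotl2, and above WT without overlap for Tead1. Open triangles mark the limit of 3 PETs (8.53 per 100000) where WT had none. The KO intervals of Tead2 and Tead4 lie above that limit.

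At the start of Tead2 there were 80 PETs in KO and 0 in WT, a share at least 2.34-fold higher in KO when WT is set to 3 PETs (exact conditional lower limit 1.86-fold). Of the 9678 gene starts above, 3287 also had no PETs in WT. Over the whole span of Tead2 with 5 kb on both sides there were 227 PETs in KO and 5 in WT, or 56.5 and 14.2 per 100000, on anchors of 25954 bp in KO and 1343 bp in WT. Per kb of anchor this was 2.18 per 100000 in KO and 10.6 in WT, so the level over the span was higher in KO and the density on the listed anchors lower. The strongest contact of Tead2 in KO, of 16 PETs, reached an anchor 23.2 kb away that holds the starts of Cd37 and Slc6a16. Over the span of Tead4 with 5 kb on both sides, KO had 80 PETs and WT, where no anchor was listed, 0, again at least 2.34-fold higher in KO by the same floor (exact conditional lower limit 1.86-fold). The 2 anchors of Tead4 in KO were joined by 7 PETs, and 4 PETs led to the start of Tulp3, 60.0 kb away. The KO anchors of Tead4 covered 8835 bp, and with none listed in WT no density can be compared.

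Over the span of Tead1 there were 213 PETs in KO and 7 in WT, or 53.0 and 19.9 per 100000, 2.67-fold higher in KO (exact conditional 95% interval 1.27 to 6.71). Anchors there covered 34188 bp in KO and 5010 bp in WT, with 1.55 and 3.97 PETs per kb of anchor per 100000, so the density on the listed anchors was lower in KO. A pair of anchors at the end of Tead1 with the lower coordinates had the most tags between different anchors in both pools, 22 PETs over 10.7 kb in KO and 2 PETs over 9.41 kb in WT.

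The ratio moved with the window: over its span with 5 kb on both sides Yap1 had 20.7 PETs per 100000 in KO and 11.4 in WT, 1.82 times as many (0.684 to 6.83), while at its start KO had 0.547 times as many (0.189 to 2.16). Values over a span are therefore not set against values at a start. The shares over all genes given above were computed at gene starts only, so values over a span have no background here. For Yap1, Wwtr1, Ccn2 and Lats1 the intervals of the ratio included no difference. Yap1 had 25 PETs at its start in KO and 4 in WT, or 6.22 and 11.4 per 100000. In KO its start was joined to anchors between 13.4 and 40.2 kb away by 2 to 4 PETs each, and by 3 PETs to the start of Birc2, an apoptosis inhibitor gene 166 kb away. Wwtr1 had 14 PETs in KO and 4 in WT (3.48 and 11.4 per 100000), with 2 PETs each to anchors 12.4, 16.5 and 28.5 kb away in KO. Ccn2 had 17 PETs over its span in KO and 4 in WT (4.23 and 11.4 per 100000), and all 4 in WT were inside 1 anchor.

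The kinase genes had few tags. Lats1 had 9 PETs in KO and 1 in WT (2.24 and 2.84 per 100000), and in each pool the nearest contact, of 3 PETs in KO and 1 in WT, was with an anchor near a start of Pcmt1, a protein repair enzyme gene. Lats2 had 8 PETs in KO (1.99 per 100000) and 0 in WT, which allows up to 8.53 per 100000 by the floor of 3 PETs and 10.5 by the exact 95% interval, so a difference was not detectable at this depth. Its contact with the most tags in KO, of 2 PETs, was with the start of Sap18, 52.9 kb away.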

How the data were processed

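For each Ensembl gene the authors deposited a raw count, a whole number that had not been normalised. The HiChIP files hold deposited counts of PETs per pair of anchors on 1 chromosome, in 1 pool per genotype as the authors' file names give it. The tools named per the submitters' processing notes are HiC-Pro 2.11.4, DESeq2 1.18.1, HTSeq 0.9.1 and HISAT2 2.1.0, with the build mm10. No source used here gives the annotation release, strand setting, loop caller or filters. Between 34.5% and 36.0% of the records of a count file lay in genes; the summary rows that name no gene were left out.

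The KO columns carry letters, so they were used as KO libraries without a number. Genotype was the only term in edgeR 4.0.16 (R 4.3.3; filterByExpr, TMM, quasi-likelihood F-test, Benjamini-Hochberg over 15517 genes, FDR 0.05). Intervals use standard errors taken from the log2 fold change and the F statistic. On simulated counts of 15134 genes the fit called 19 of 100 genes simulated with a 2-fold difference and 83 of 100 with a 4-fold one. Symbols matched 52403 identifiers. RefSeq gives the gene spans and starts (GRCm38); HiChIP windows were 5 kb around the start, or the span for Tead1, Tead4 and Ccn2. The genes and lists were chosen with earlier results of these data known. In the lists, those past the threshold were named, up to 6 by the smallest p; the ranges and extremes given beside them, Ankrd1, Vgll4 and Tead3 were chosen after their values were seen. The planned comparison of protein sequences was not made. Alternatives were RLE factors, library totals, DESeq2 1.42.0, limma 3.58.1 voom, other filters, each library left out, and other HiChIP windows and PET minimums.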

Additional observations from a re-analysis of the deposited data

How the results depend on the processing

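No paired analysis was possible because the KO columns carry letters and not replicate numbers. Of all genes, 2 passed with no expression filter and 1013 to 2517 when 1 library was left out, the most without WT replicate 1, compared with 1288 in edgeR. With no expression filter 0 of the 10 genes and 0 of the pathway genes passed, while 5 and 12 had an unadjusted p under 0.05. In that setting 4021 of all 27254 genes had an unadjusted edgeR p under 0.05. Leaving out 1 library gave 1 to 4 called among the 10 genes and 2 to 7 among the pathway genes; Ccn1 alone passed without KO library B, and Tead1 and Tead4 joined Ccn1 and Amotl2 without WT replicate 2. Over these fits the log2 fold change ranged from -0.18 to 0.28 for Yap1, -0.62 to 0.04 for Ccn2, -0.039 to 0.64 for Lats1 and -0.45 to 0.85 for Lats2, with a change of sign for each. A fit with 1 library of a genotype assumes that it varies like the other genotype. Other scalings, DESeq2, limma voom and the filter of 1 CPM changed no sign among the 10 genes. The share of PETs at the 7 gene starts was 0.0408% in KO and 0.111% in WT. Over gene bodies it was 0.0978% in KO and 0.125% in WT, and for pairs of at least 2 PETs 0.0341% in KO and 0.153% in WT. Without PETs inside 1 anchor, an alternative chosen after seeing the data, it was 0.0541% in KO and 0.0551% in WT. The WT pool holds 39 PETs at these starts, which limits every contact comparison.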

Other observations

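Genes of the actin cytoskeleton driven by SRF and MRTF, which share targets with YAP and TEAD, were called about as often as all genes. Of 12 tested, 1 rose and 0 fell in edgeR, where 8.3% of all tested genes were called. The gene that rose, Cnn1, which encodes the smooth muscle protein calponin, had 39 counts in KO library B and 13 in KO library F, against 1 and 3 in the WT libraries (edgeR FDR 0.035). It missed the threshold in limma voom (adjusted p 0.062) and when KO library B was left out (edgeR FDR 0.23). Its log2 fold change was 3.76 with all libraries and 2.76 to 4.66 when 1 was left out. The log2 fold change of Srf itself was -0.14 (edgeR FDR 0.78), and the median of the list was -0.16.

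Trophectoderm genes, which TEAD4 and YAP are known to drive in the embryo, did not move one way. Of all tested genes, edgeR called 2.96% higher and 5.34% lower. Of the 8 tested here, Hand1 and Fgfr2 rose and Tfap2a fell in edgeR, and limma voom called Tfap2a alone. Without KO library B none of these passed (edgeR FDR between 0.13 and 0.27), and Hand1 also missed the threshold without any other library. Cdx2, a trophectoderm regulator, had 5 and 1 counts in KO and 1 and 4 in WT, below the filter. Gata3, another such regulator, had 13 and 7 counts in KO and 6 and 10 in WT, also below it. Fgfr2 stood at 8.83 ± 4.62 CPM in KO and 1.72 ± 0.18 CPM in WT (SD, n = 2), a log2 fold change of 2.35 that was 1.69 without KO library B. Tfap2a stood at 2.20 ± 0.74 CPM in KO and 8.33 ± 0.24 CPM in WT.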
